A study of Mus musculus with 2 samples.

Results

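B cells from mouse blood that carried transcripts of Zbtb32, Bhlhe41, Tppp3, Mzb1 or Atf3 were described by gene and by library. A cell barcode was selected when it held at least 3 UMIs of these 5 rule genes in sum. A UMI, or unique molecular identifier, counts 1 captured transcript molecule. The barcode also needed at least 3 UMIs of Cd79a, Cd79b and Ms4a1 in sum, which encode the signalling chains of the B cell receptor and CD20, and at most 1 UMI of the T cell genes Cd3d, Cd3e and Cd3g. Of 9415 barcodes with at least 800 UMIs, at least 200 genes and at most 10% mitochondrial UMIs, 313 were selected. They numbered 180 of 4190 barcodes in the mutant library and 133 of 5225 in the wildtype library. The comparison cells were 1932 other B cells, 997 mutant and 935 wildtype, which met the same B and T cell conditions with at most 2 UMIs of the rule genes.

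The blood came from 10-week-old female C57Bl/6 mice, 3 per genotype, and was pooled into a single library for each genotype. Mutant mice had the genotype MvkV377I/del91 in the gene of mevalonate kinase, an early enzyme of the pathway that makes cholesterol and isoprenoids, and the controls were wildtype (Mvk+/+). Mononuclear cells were sorted as negative for the dead-cell dye DAPI and the red cell marker Ter119, and were run on the 10x Genomics 3' v2 system with a target of 2000 cells per library. With 1 library per genotype there was no replicate check and no test, and genotype, mouse pool and library cannot be told apart. Every interval given is a 95% interval for counting error only.

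B-1 cells are innate-like B cells that renew themselves, make natural antibody and are best known from the body cavities. Bhlhe41, a basic helix-loop-helix repressor, is known for its part in that lineage. Memory B cells are the long-lived products of earlier responses and in mice are told apart by surface CD80, CD73 (Nt5e) and PD-L2 (Pdcd1lg2), and atypical or age-associated B cells by T-bet (Tbx21) and CD11c (Itgax). Most B cells of blood are recirculating follicular cells with CD23 (Fcer2a) and CCR7. Immunoglobulin genes, which would give isotypes, were not analysed here.

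The libraries held 14513059 (mutant) and 15385199 UMIs (wildtype). Selected cells were deeper than the other B cells, with a median of 3763 UMIs (1053 to 10947) and 1385 genes in the mutant library and 3314 UMIs (1225 to 9959) and 1302 genes in the wildtype library. The other B cells had medians of 1521 and 1542 UMIs. A rule on summed UMIs favours deep cells, so levels are given as CPM, the UMIs of a gene per 1000000 UMIs of the summed cells. Shares of cells with a marker were also taken after thinning every cell to 1000 UMIs. Shares of cells with a rule gene or with at least 3 S100a6 UMIs were not thinned. Thinning left out 26 mutant and 14 wildtype other B cells and 0 selected cells. Mitochondrial shares were close in all 4 sets, with medians of 3.47% to 3.57%. Scrublet doublet scores above 0.2 marked 1 selected cell in each library. No selected barcode was among the 28 barcodes kept in both libraries.

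The 5 rule genes chose the cells, so their values only describe the choice. Zbtb32, a zinc-finger repressor of activated B cells, was at 193 CPM in selected and 3.71 CPM in other B cells of the mutant library and at 135 and 1.27 CPM in the wildtype library. Bhlhe41 was at 116 and 22.9 CPM (mutant) and 120 and 9.49 CPM (wildtype). Tppp3, a tubulin-binding protein, was at 266 and 4.33 CPM (mutant) and 229 and 1.90 CPM (wildtype). Atf3, a stress-induced transcription factor, was at 519 and 17.9 CPM (mutant) and 654 and 16.5 CPM (wildtype). Mzb1, an endoplasmic reticulum cochaperone of antibody assembly, was the least selective of the 5, at 1018 and 301 CPM (mutant) and 985 and 299 CPM (wildtype).

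The label of Zbtb32 and Bhlhe41 fitted only part of the set. Mzb1 was seen in 174 of the 180 mutant cells (96.7%) and 125 of the 133 wildtype cells, Atf3 in 90 (mutant) and 66 cells (49.6% of wildtype), Zbtb32 in 45.0% (mutant) and 28.6% (wildtype), Tppp3 in 36.1% and 28.6%, and Bhlhe41 in 24.4% and 24.8%. A UMI of Zbtb32 or Bhlhe41 was present in 95 of 180 mutant cells (52.8%) and 57 of 133 wildtype cells (42.9%). At least 3 of the 5 rule genes were seen together in 48.3% and 40.6% of cells. In 45 mutant and 44 wildtype cells (33.1%) all rule UMIs were Mzb1. The set is therefore called the selected B cells, and for some genes below the cells with another rule gene are given apart from the Mzb1-only cells.

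Levels of S100a6 and Fcer2a changed with the rule sum within the selected cells and, in the mutant library, also below the threshold. Median UMIs per cell rose as well, from 1453 (mutant) and 1506 (wildtype) at a sum of 0 to 5137 and 4371 at 10 or more. The steps therefore also order cells by depth. S100a6, which encodes a calcium-binding protein and was not in the rule, was at 62.5, 105 and 266 CPM in mutant B cells with a rule sum of 0, 1 and 2, at 688 CPM at a sum of 3 and at 4401 CPM at 10 or more. Wildtype cells gave 58.0, 85.4 and 76.2 CPM below the threshold, 609 CPM at 3 and 3009 CPM at 10 or more. S100a6 was therefore already over 2-fold higher at 3 than at 2 UMIs in both libraries, and higher again in cells deep within the set. Fcer2a ran the other way, from 431 CPM at 0 to 25.3 CPM at 10 or more in the mutant library and from 390 to 23.0 CPM in the wildtype library. Just inside the threshold, at 3 UMIs, Fcer2a was at 333 (mutant) and 239 CPM (wildtype), against 312 and 381 CPM just outside it, at 2 UMIs. These border steps held 42 cells at 3 UMIs in each library, and 136 mutant and 108 wildtype cells at 2 UMIs.

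**Figure D1:**
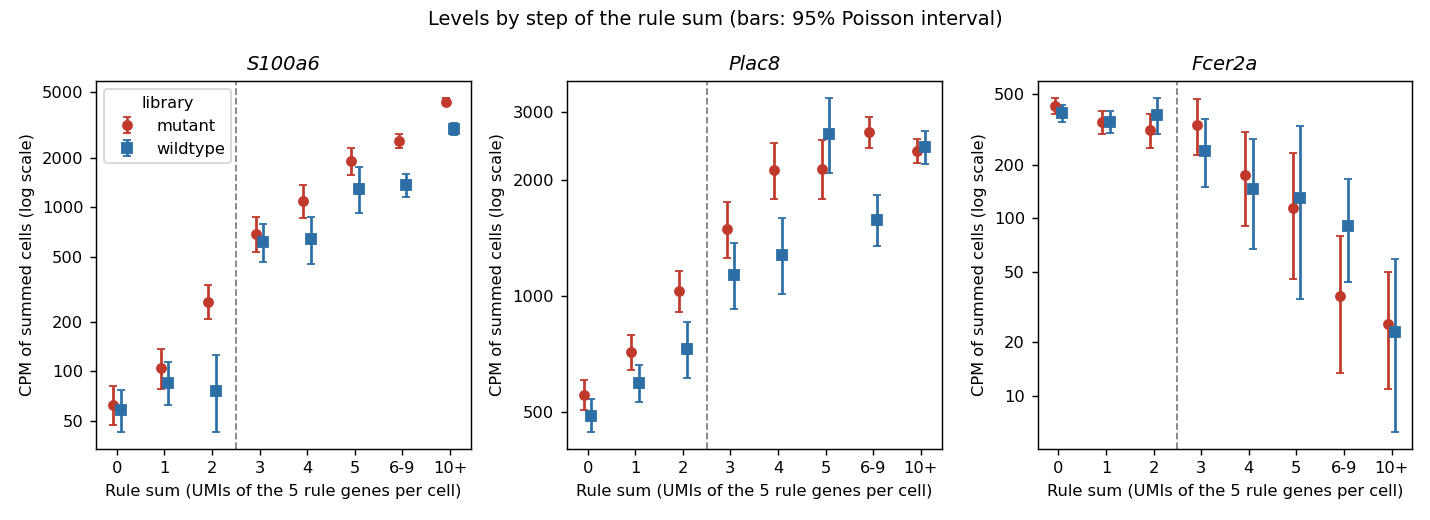
Level of S100a6, Plac8 and Fcer2a (CPM of summed cells, log scale) in B cells grouped by the UMIs of the 5 rule genes per cell, for the mutant (red circles) and wildtype library (blue squares), with 95% Poisson intervals. The dashed line is the threshold between other and selected B cells, and S100a6 goes from under 300 CPM on its left to 4401 and 3009 CPM at the right end, while Fcer2a goes down. Cells at the right end are also deeper.

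Across the transcriptome, 2914 genes had enough UMIs to be compared in both libraries, and a gene counted as higher or lower when its CPM differed at least 1.5-fold in the same direction in both. By that rule 79 genes (2.71%) were higher and 213 (7.31%) lower in selected than in other B cells. The median log2 ratio over all measured genes was -0.12 (mutant) and -0.08 (wildtype). The cells were selected on these same libraries, so the contrast is a description.

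S100a6 (chromosome 3, 90612882 to 90624181, plus strand, GRCm38) had the highest ratio in each library among the 2914 measured genes, which exclude the rule genes and genes with too few UMIs. It was at 2919 CPM in selected and 108 CPM in other B cells of the mutant library, a ratio of 27.0 (23.1 to 31.7), and at 1726 and 69.6 CPM in the wildtype library, a ratio of 24.8 (20.3 to 30.6). T cells of the same libraries were at 127 and 160 CPM. Ass1, the argininosuccinate synthase of arginine synthesis, was at 265 against 21.0 CPM (12.6, 8.72 to 18.8) in mutant cells and at 182 against 31.6 CPM (5.74, 4.00 to 8.31) in wildtype cells. Anxa2, a membrane-binding annexin, had ratios of 9.70 (7.16 to 13.3) and 4.29 (3.22 to 5.73). Ratios of both genes were larger in the mutant library, where the other B cells had the lower level of each. The mutant S100a6 ratio was 14.5 when Mzb1 was left out of the rule sum and 7.90 when cells were chosen after thinning to 1000 UMIs, and the wildtype Anxa2 ratio was 9.20 without cells of doublet scores above 0.2.

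Adhesion and cytoskeletal genes were among the other higher genes. Itgb1, the integrin beta 1 chain, was at 149 and 152 CPM in selected cells of the mutant and wildtype library, with ratios of 6.69 (4.54 to 10.1) and 3.58 (2.53 to 5.08). Crip1, a small LIM domain protein, had ratios of 4.59 (4.36 to 4.84) and 4.10 (3.84 to 4.38), the intermediate filament gene Vim 3.92 (3.50 to 4.41) and 3.48 (3.03 to 3.99), and the large scaffold gene Ahnak 4.22 (3.31 to 5.40) and 4.65 (3.49 to 6.22). Lgals1, which encodes galectin-1, had ratios of 4.31 (3.71 to 5.01) and 2.73 (2.29 to 3.24), and Pdlim1, a PDZ and LIM domain protein, 3.00 (2.35 to 3.83) and 3.87 (2.81 to 5.33). The intervals of all 6 genes lay above 1 in both libraries, which the rule for naming favours. When cells with at least 2 UMIs of other cell types' genes were removed, which left 14 mutant and 6 wildtype selected cells, the mutant Crip1 ratio was 1.45, under 1.5-fold. Those genes include Tcf4, which B cells also express, and the median selected cell held 3 UMIs of the monocyte list in each library. The cut thus takes most selected cells on low counts, deep cells first, and a part of other cell types was not tested.

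Plac8, a small cysteine-rich protein, was at 2270 against 679 CPM in the mutant library and 1833 against 555 CPM in the wildtype library, with ratios of 3.34 (3.10 to 3.61) and 3.30 (3.00 to 3.64). Cd9, a tetraspanin of B-1 and marginal zone B cells, had ratios of 2.79 (2.18 to 3.58) and 3.73 (2.64 to 5.27), and Ly6a, the surface protein Sca-1, 3.83 (3.36 to 4.36) and 2.97 (2.57 to 3.45). Ccnd2, the cyclin D2 that B-1 cells are known to express, had ratios of 3.15 (2.52 to 3.96) and 4.63 (3.45 to 6.24). Rassf4, a Ras-association domain gene, had 5.27 (3.66 to 7.68) and 4.78 (3.15 to 7.31), and the dipeptidase gene Pepd 4.59 (3.25 to 6.55) and 4.32 (2.85 to 6.6). Of the 15 higher genes named by the rule for naming, all had intervals above 1 in both libraries.

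On the lower side, Fcer2a lies on the minus strand of chromosome 8 (3681737 to 3694175). Selected cells of the mutant library had 92.1 CPM and other B cells 386 CPM, a ratio of 0.239 (0.182 to 0.308). Its wildtype levels were 105 and 375 CPM, a ratio of 0.279 (0.204 to 0.374). Ccr7, the receptor that guides cells into lymph nodes, was at 397 against 1061 CPM (0.374) and 410 against 980 CPM (0.419), and Cxcr4, the receptor for CXCL12, had ratios of 0.249 and 0.353. These are surface receptors of resting, recirculating B cells. Vpreb3, a marker of immature B cells, was at 73.7 against 340 CPM (0.217) and 81.2 against 251 CPM (0.323).

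Regulators were also among the lower genes. Satb1, a chromatin organiser, had ratios of 0.237 (mutant) and 0.386 (wildtype), the antiproliferative gene Btg1 0.378 and 0.476, the phosphatase gene Dusp2 0.340 and 0.4, and the inhibitory receptor gene Btla 0.335 and 0.319. Hvcn1, a voltage-gated proton channel of B cells, had ratios of 0.316 and 0.393, and the mitochondrial protein gene Chchd10 0.287 and 0.362. Pxdc1 (0.145 and 0.208) and Tmem108 (0.146 and 0.277) rested on 9 or 10 UMIs in the selected cells of each library. Of all 213 lower genes, 177 had intervals below 1 in both libraries, and the 12 named here were chosen by that bound. In the 14 and 6 selected cells left without cells of at least 2 UMIs of other cell types' genes, Ccr7 was at 0.886 (mutant) and Btg1 at 0.819 and 0.917. Neither was 1.5-fold lower there, and that cut, as said for Crip1, takes most selected cells on low counts. The size of the lower ratios followed the rule. Fcer2a was at 0.378 (mutant) and 0.498 (wildtype) when cells with a rule sum of at least 2 were selected. It was at 0.0819 and 0.165 with Mzb1 left out of the sum.

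**Figure D2:**
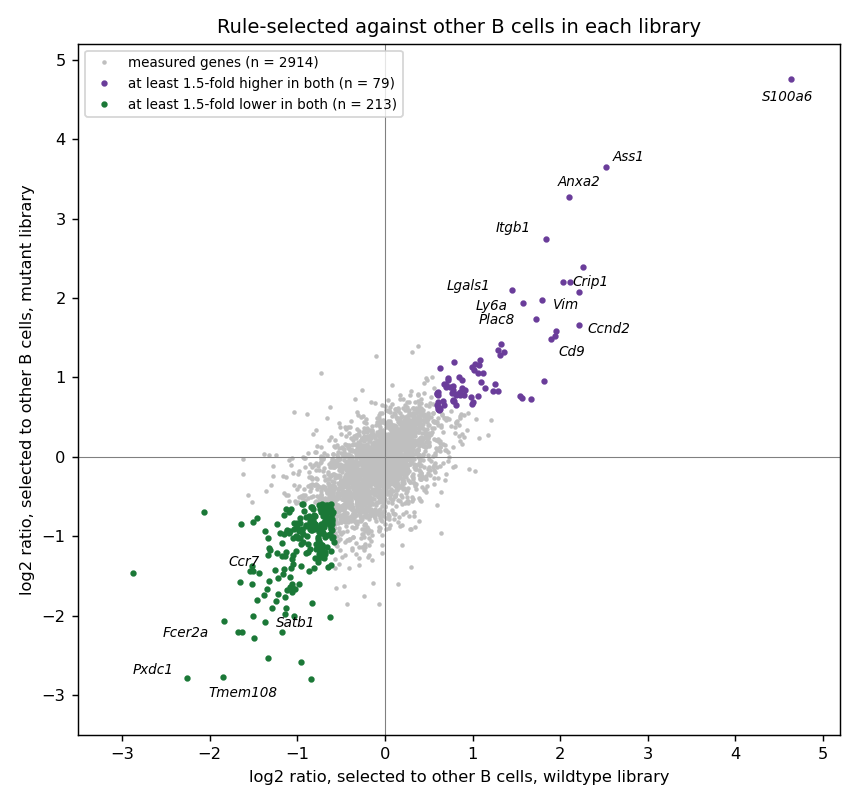
Each point is 1 of 2914 genes, with the log2 ratio of CPM in selected to other B cells of the wildtype library on the x axis and of the mutant library on the y axis. Purple points are the 79 genes at least 1.5-fold higher and green points the 213 at least 1.5-fold lower in both libraries, with S100a6 farthest out at 4.63 (wildtype) and 4.75 (mutant).

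Promoter sequence was read for these genes because Bhlhe41 is known to bind the E-box CACGTG and Atf3 the AP-1 motif TGANTCA and the related CRE TGACGTCA. The windows below come from RefSeq promoters (250 bases before to 50 after each start site) on build GRCm38.p6, are written 5′ to 3′ on the strand of the gene, and have the motif in capitals. They show the E-box of 3 named higher genes (S100a6, Ass1 and Pepd), of 3 named lower genes (Dusp2, Btla and Tmem108) and of Bhlhe41 itself, and the AP-1 motif of Anxa2 (higher) and Fcer2a (lower). The Fcer2a window shown lies inside the gene span given above, and another AP-1 window of Fcer2a, at 3694384 to 3694413, is not shown.
S100a6 (E-box, chr3:90612896-90612925, plus strand): agagtttcgagtCACGTGccagaagggaaa
Ass1 (E-box, chr2:31470222-31470251, plus strand): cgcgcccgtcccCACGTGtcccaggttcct
Pepd (E-box, chr7:34912401-34912430, plus strand): gacgctgcactcCACGTGacgctagcgccg
Dusp2 (E-box, chr2:127336038-127336067, plus strand): cagccagagtccCACGTGaagccgcggggg
Btla (E-box, chr16:45224329-45224358, plus strand): gcccttacctgaCACGTGctgggaatgaag
Tmem108 (E-box, chr9:103761936-103761965, minus strand): ggcttgtgaggcCACGTGaccagcgctggg
Bhlhe41 (E-box, chr6:145865556-145865585, minus strand): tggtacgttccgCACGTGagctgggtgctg
Anxa2 (AP-1, chr9:69453577-69453606, plus strand): tccaagttggaTGAGTCAcccagcagggtg
Fcer2a (AP-1, chr8:3690905-3690934, minus strand): cctcctttctgTGACTCAacaccttcctaa
On either strand, CACGTG was present in 13.1% of the 61 higher genes with a promoter in the table, 14.2% of 169 lower genes, 13% of 2247 measured genes and 8.09% of all 27025 promoters. TGANTCA was present in 8.20%, 10.7%, 5.70% and 8.97% of the same sets, and TGACGTCA in 0 of 61, 4.14%, 3.96% and 2.03%. The E-box shares of the higher and lower genes were thus both close to that of all measured genes. The AP-1 shares of both sets, on 5 higher and 18 lower genes, were above that of all measured genes, and this was not tested.

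S100a6 divided the selected cells among themselves. It ranged from 0 to 73 UMIs per cell with a median of 6 in the mutant library, and from 0 to 34 with a median of 2 in the wildtype library. At least 3 UMIs were present in 104 of 180 mutant (57.8%, 50.2 to 65.1%) and 65 of 133 wildtype cells (48.9%, 40.1 to 57.7%), but in only 8 of 997 (0.802%) and 10 of 935 (1.07%) other B cells. Seen from the S100a6 side, 104 of 112 mutant B cells (92.9%) and 65 of 75 wildtype B cells (86.7%) with at least 3 S100a6 UMIs were selected cells. These counts were taken without thinning, which favours the deeper selected cells. By raw counts most B cells with high S100a6 were thus selected cells, although many selected cells had little or none. At 1000 UMIs per cell, S100a6 was seen in 60.6% and 48.9% of selected cells, 6.80% and 4.67% of other B cells and 7.20% and 8.73% of T cells.

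Mzb1-only cells had less of this pattern. With another rule gene, 98 of 135 mutant cells (72.6%, 64.3 to 79.9%) and 64 of 89 wildtype cells (71.9%, 61.4 to 80.9%) had at least 3 S100a6 UMIs, and the summed levels were 3303 and 2174 CPM. The Mzb1-only cells reached 3 UMIs in 6 of 45 (13.3%) and 1 of 44 (2.27%), with 776 and 79.9 CPM. The wildtype level was close to the 69.6 CPM of other B cells, while the mutant level was above their 108 CPM. Crip1, Vim and Itgb1 had the same order, Itgb1 at 162 and 190 CPM in cells with another rule gene and at 74.7 and 9.99 CPM in Mzb1-only cells. Fcer2a was at 70.2 and 73.4 CPM in cells with another rule gene and at 215 and 220 CPM in Mzb1-only cells. Plac8 differed less, and Mzb1-only cells, at 1850 and 1149 CPM, were above the other B cells (679 and 555 CPM) in both libraries. The Mzb1-only cells were also shallower, with medians of 2107 and 1914 UMIs against 4268 and 4078.

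**Figure D3:**
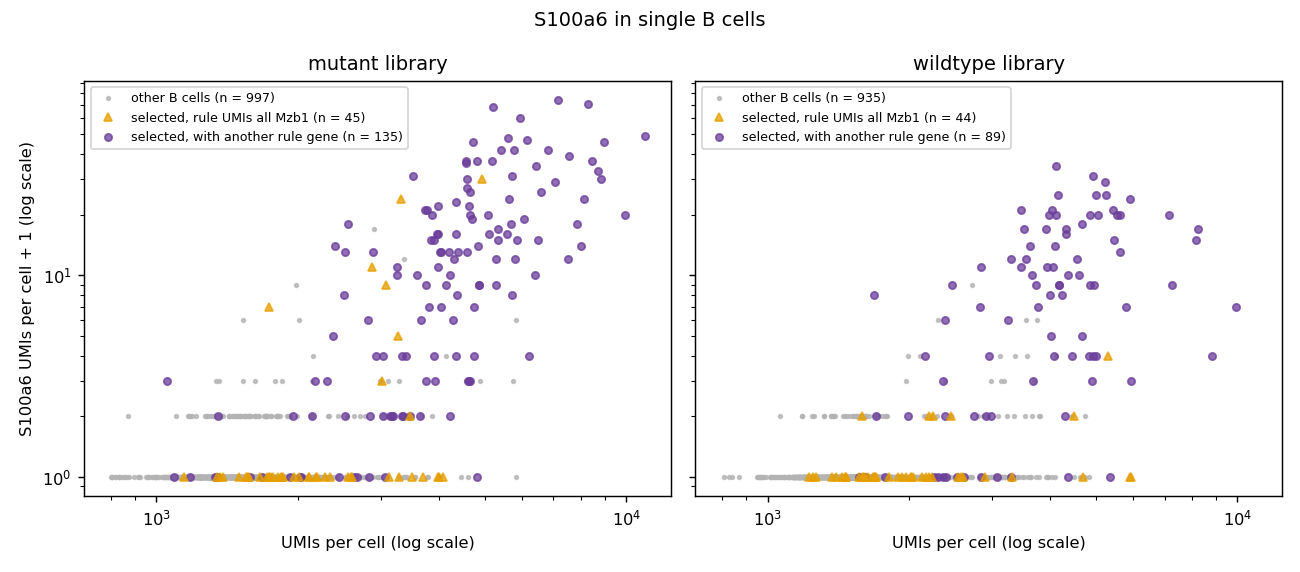
S100a6 UMIs per cell plus 1 against total UMIs per cell (both log scales) for B cells of the mutant (left) and wildtype library (right). Selected cells with another rule gene (purple circles) hold most cells of high S100a6, up to 73 and 34 UMIs, while most Mzb1-only cells (orange triangles) and other B cells (grey) lie at 0.

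As B-1 candidates, the selected cells had more of most B-1 genes than other B cells did. Of 14 genes in the B-1 list, 10 had ratios above 1 in both libraries, and 7 of them (Cd9, Ctla4, Fcrl5, Il5ra, Ptpn22, Ahr and Plscr1) had intervals above 1 in both. Of all 11374 genes with a UMI in the B cells of each library, 23.4% had ratios above 1 in both and 3.28% had intervals above 1 in both. Only Cd9 and Ptpn22 had enough UMIs to be measured, and both were higher, against 2.71% of all measured genes. Summed over the list, the level was 709 CPM in selected and 287 CPM in other B cells (mutant) and 613 and 240 CPM (wildtype). The list and its genes were chosen with earlier results of these data known.

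Ctla4, an inhibitory receptor that B-1a cells are known to carry, had 27 UMIs in selected and 2 in other B cells of the mutant library, a ratio of 31.0 (7.78 to 269). Its wildtype counts were 18 and 5 UMIs, a ratio of 12.2 (4.35 to 41.9). After thinning, 2.22% and 4.51% of selected cells had a Ctla4 UMI, against 0.103% and 0.109% of other B cells and 1.53% and 2.13% of T cells. Without thinning, 12.8% and 10.5% of selected cells and 0.201% and 0.535% of other B cells had one. Il5ra, the interleukin-5 receptor chain of B-1 cells, had 21 against 18 UMIs (2.68, 1.36 to 5.33) and 22 against 18 UMIs (4.13, 2.11 to 8.17). Fcrl5, an Fc receptor-like protein of B-1 and marginal zone B cells, had 13 against 5 UMIs (5.96, 2.0 to 21.4) and 15 against 8 UMIs (6.33, 2.52 to 17.3).

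The classical surface markers of B-1 cells were sparse. Cd5 had 8 UMIs in selected and 7 in other B cells of the mutant library (ratio 2.62, 0.831 to 8.49) and 9 and 6 in the wildtype library (5.07, 1.61 to 17.3). At 1000 UMIs per cell it was seen in 1 of 180 mutant and 0 of 133 wildtype selected cells, which allows a share of up to 2.26% in the latter, against 6.92% and 8.14% of T cells, and without thinning in 6 and 8 selected cells. Spn, which encodes CD43, had ratios of 3.15 (1.58 to 6.43) and 0.993 (0.438 to 2.06), and 5 of its 22 mutant UMIs were in a single cell. Itgam, which encodes CD11b, had 19 against 3 UMIs in the mutant (14.5, 4.28 to 76.7) and 6 against 8 UMIs in the wildtype library (2.53, 0.725 to 8.33). Bhlhe40, the paralog of Bhlhe41, was on the opposite side, with ratios of 0.543 (0.306 to 0.917) and 0.208 (0.0550 to 0.558). Thus Spn and Itgam were clearly above other B cells only in the mutant library, and Cd5 only in the wildtype library. In selected cells the mutant to wildtype ratio was 1.46 (0.663 to 3.45) for Spn and 2.1 (0.81 to 6.43) for Itgam. Both intervals included 1. Other B cells had less Spn in the mutant library, at 9.885 against 21.51 CPM (0.46, 0.237 to 0.856). Their Itgam level was 1.853 against 5.061 CPM, with an interval that included 1 (0.366, 0.0626 to 1.53). The difference between libraries was not tested.

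As memory B cell candidates, the selected cells gave a mixed result. Of 13 list genes, 7 had ratios above 1 in both libraries, and intervals were above 1 in both for Cd80, Itgb1 and Cd44, beside the 23.4% and 3.28% of all genes given above. Cd80, a ligand of CD28 and CTLA-4, had 13 against 2 UMIs in the mutant library (14.9, 3.38 to 136) and 9 against 2 UMIs in the wildtype library (15.2, 3.15 to 145). Cd44, the hyaluronan receptor, had ratios of 1.94 (1.39 to 2.69) and 3.52 (2.32 to 5.34). The other surface genes that define mouse memory B cells did not stand out in both libraries. Nt5e had 2 against 2 and 2 against 6 UMIs, and Pdcd1lg2 had ratios of 1.99 (0.871 to 4.48) and 0.699 (0.237 to 1.71). Cd27 was at 0.724 (0.499 to 1.03) and 0.652 (0.419 to 0.983), and Cd38 at 1.47 (1.15 to 1.87) and 1.25 (0.924 to 1.67). The transcription factor gene Hhex, which is known for its part in memory B cell formation, was lower, at 0.45 (0.310 to 0.636) and 0.595 (0.414 to 0.836).

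Markers of atypical B cells were at or near the level of other B cells. Tbx21 had 1 UMI in selected and 3 in other B cells (mutant) and 2 and 12 (wildtype), and Itgax had 2 and 3 (mutant) and 1 and 4 (wildtype). At these counts a difference was not detectable. Zeb2, a transcription factor of age-associated B cells, had ratios of 0.896 (0.633 to 1.25) and 1.15 (0.763 to 1.69), and Fas, the death receptor, had 4 UMIs in the selected cells of each library. Fcrl5 and Cd80, which are also on the lists above, had intervals above 1 in both libraries. None of the 4 measured list genes was 1.5-fold higher or lower in both libraries. Cxcr3 had 17 wildtype UMIs in 6 selected cells, 7 of them in a single cell, and 3 mutant UMIs.

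Follicular genes were lower as a group. Of 13 measured genes of that list, 8 were lower (Fcer2a, Ccr7, Foxo1, Il4ra, Cd55, Cr2, Satb1 and Btla) and 0 higher, beside 7.31% lower of all measured genes. The list's median log2 ratio was -1.23 (mutant) and -0.76 (wildtype). Klf2, the transcription factor of quiescence and egress, was close to other B cells at 0.996 (0.955 to 1.04) and 1.08 (1.03 to 1.14), and Cxcr5, the follicle-homing receptor, had 1.17 (0.818 to 1.66) and 1.31 (0.887 to 1.91). After thinning, Fcer2a was seen in 12.8% (8.28 to 18.6%) of the 180 mutant cells and 9.77% (5.31 to 16.1%) of the 133 wildtype cells, against 29.4% and 30.4% of other B cells and 0.850% and 0.459% of T cells. Without thinning the shares were 22.8% and 26.3% of selected and 39.1% and 43.4% of other B cells. At equal depth Fcer2a was thus seen in fewer selected than other B cells, while both were above T cells.

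Marginal zone and transitional genes were not shared features. Each count here stands beside 2.71% higher and 7.31% lower of all measured genes. Of 6 measured marginal zone genes, Cd9 was higher and Cr2 and Lfng were lower. Cr2, which encodes the complement receptor CD21, had ratios of 0.368 (0.207 to 0.617) and 0.345 (0.184 to 0.599), and Cd1d1, the lipid-presenting molecule, 0.543 (0.306 to 0.917) and 0.573 (0.261 to 1.13). Of 5 measured transitional genes, Vpreb3 was lower and 0 were higher. Cd24a, also high on immature B cells, was at 1.0 (0.865 to 1.16) and 1.30 (1.09 to 1.53). Tcf4, another gene of the transitional list, had intervals above 1 in both libraries but was not counted as higher.

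**Figure D4:**
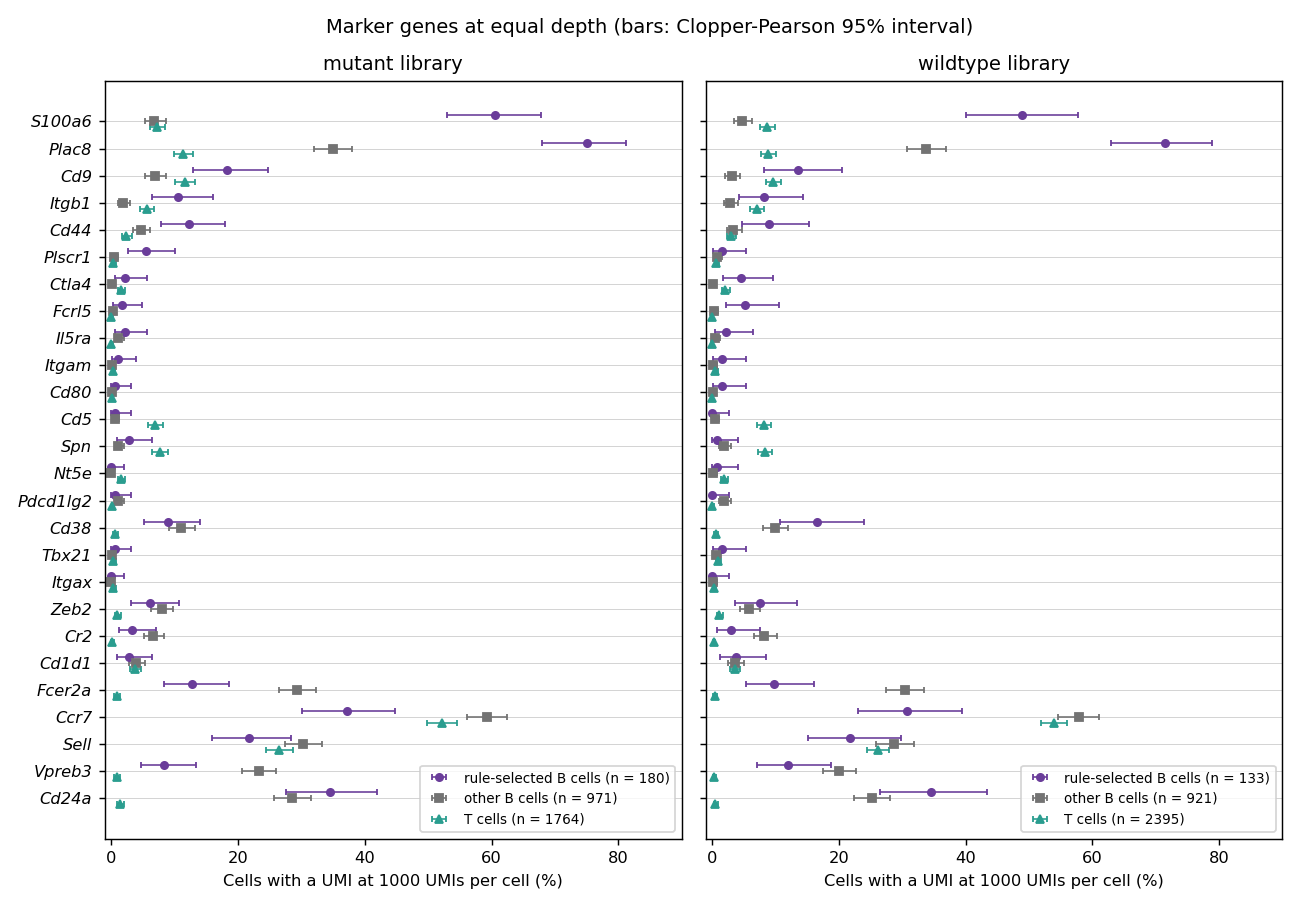
Share of cells with at least 1 UMI of each marker after thinning to 1000 UMIs per cell, in selected B cells (purple circles), other B cells (grey squares) and T cells (green triangles), with Clopper-Pearson 95% intervals, for the mutant (left) and wildtype library (right). S100a6 (60.6% and 48.9% of selected cells) and Plac8 (135 of 180 mutant and 71.4% of wildtype cells) separate selected from other B cells, Fcer2a, Ccr7 and Vpreb3 are lower in selected cells, and Tbx21, Itgax and Nt5e are near 0 in all sets.

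Plasma cell genes were close to other B cells in sum, at 2595 against 2305 CPM (mutant) and 2408 against 2032 CPM (wildtype) over the 22 genes of the antibody-secretion list. Of its 11 measured genes, Pdia4, a disulfide isomerase, was higher (1.82, 1.46 to 2.28, and 2.21, 1.72 to 2.83) and Dnajb9, an endoplasmic reticulum chaperone, lower (0.619 and 0.640), beside 2.71% higher and 7.31% lower of all measured genes. Sec11c, a signal peptidase subunit, was at 1.49 (1.28 to 1.73) and 1.29 (1.07 to 1.56), and Sec61b, of the channel into the endoplasmic reticulum, at 1.27 (1.07 to 1.5) and 1.26 (1.02 to 1.55), both with intervals above 1 and under 1.5-fold. Jchain, which joins antibody polymers, had 17 UMIs in selected and 4 in other B cells of the mutant library (9.75, 3.18 to 39.8). In the wildtype library it had 24 UMIs against 0, at least 27.0-fold higher than the limit of 1.90 CPM that 3 counts over all other B cells give, and 11 of the 24 were in a single cell. Xbp1, the transcription factor of secretion, was at 1.10 (0.729 to 1.65) and 1.35 (0.854 to 2.09), and was seen in 32 of 180 mutant and 23 of 133 wildtype selected cells without thinning. Prdm1, which encodes the plasma cell factor BLIMP-1, had 8 against 1 and 2 against 1 UMIs. Thus Jchain and Prdm1 were confined to few selected cells, 11 and 7 for Jchain and 8 and 2 for Prdm1, while Xbp1 was spread more widely.

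The S100, annexin and cytoskeletal list had a median log2 ratio of 1.13 (mutant) and 0.93 (wildtype). Of its 14 measured genes, 11 were higher and 0 lower, beside 2.71% higher and 7.31% lower of all measured genes. Besides the genes above, these included S100a10 (1.82 and 1.84), S100a11 (1.95 and 1.84), the actin-capping gene Capg (2.20 and 1.99) and Tagln2 (2.68 and 2.51). S100a4, a motility-linked relative of S100a6, had too few UMIs in other B cells to be counted, with 106 against 10 UMIs (24.3, 12.7 to 52.2) and 45 against 5 UMIs (30.4, 12.1 to 98.1). That list was drawn up knowing that S100a6 marks these cells, so its direction is not independent evidence.

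Some genes of B cell identity and activation were lower, and each count below stands beside 7.31% lower and 2.71% higher of all 2914 measured genes. Of 23 measured B lineage transcription factor genes, 6 were lower (Ebf1, Bach2, Irf8, Foxo1, Rel and Ets1) and 0 higher. Bach2, a repressor that holds B cells back from differentiation, was at 0.216 (mutant, 0.130 to 0.343) and 0.441 (wildtype, 0.273 to 0.684), and Ebf1 at 0.447 and 0.594. Pax5, which maintains B cell identity, was at 0.555 (0.427 to 0.715) and 0.673 (0.503 to 0.889), just short of 1.5-fold in the wildtype library. Of 13 measured MHC class II and costimulation genes, H2-DMb1, H2-Oa, H2-Ob and Ciita were lower and 0 higher, and Cd74, the invariant chain, was at 0.767 and 0.785. Of 20 measured B cell receptor signalling genes, Cd72, Btk, Cr2 and Fcrl1 were lower and 0 higher.

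Immediate early genes, whose transcripts appear within minutes of stimulation or handling, were not higher alongside Atf3. Of 18 measured, 7 were lower (Junb, Nr4a1, Dusp1, Dusp2, Btg2, Cd69 and Tnfaip3) and 0 higher, beside 7.31% lower and 2.71% higher of all measured genes. Fos was at 0.839 (0.673 to 1.04) and 0.770 (0.605 to 0.970), and Jun at 1.29 (1.07 to 1.56) and 1.15 (0.886 to 1.48). Mcl1, an antiapoptotic relative of Bcl2, was the 1 higher gene of 8 measured survival genes, at 1.63 (1.36 to 1.95) and 1.58 (1.26 to 1.97). Among 3 measured cell cycle genes 0 were higher or lower. Of 96 measured ribosomal protein genes, 4 were higher and 0 lower, with median log2 ratios of 0.27 and 0.20.

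Transcripts of most other lineages were no higher than in other B cells, and erythroid transcripts were abundant in the mutant library. The erythroid list (5 genes, mostly globins) summed to 11070 CPM in selected and 10230 CPM in other B cells of the mutant library, against 241 and 304 CPM in the wildtype library. In the mutant library 142 of 180 selected cells held at least 5 erythroid UMIs and 3 held at least 100, against 1 and 0 of 133 wildtype cells. Free RNA held 50480 and 3559 CPM of the same genes, and the part of erythroid RNA in the differences between libraries was not tested beyond leaving out the cells of 100 or more globin UMIs, which moved no gene count by over 1.5 times. The T cell list (10 genes) summed to 142 CPM in selected and 213 CPM in other B cells (mutant) and 207 and 270 CPM (wildtype), with at most 4 UMIs in any selected cell. The NK cell list (8 genes) summed to 604 and 868 CPM (mutant) and 1263 and 2379 CPM (wildtype), and 1 selected cell in each library held over 100 NK UMIs. The monocyte list (10 genes) was level, at 1080 and 1063 CPM (mutant) and 897 and 954 CPM (wildtype), with 1 and 4 of its genes at 0 in selected cells. Platelet genes gave 55.3 CPM in mutant selected cells and 0 UMIs of 6 genes in wildtype ones, and neutrophil genes gave 5 and 8 UMIs. The plasmacytoid dendritic cell list was the 1 list above other B cells in both libraries, at 210 against 158 CPM and 235 against 142 CPM. Most of that sum was Tcf4 (126 and 100 UMIs), which B cells also express, and 4 and 3 of its 8 genes were at 0.

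As a share of B cells, the selected cells were 180 of 1177 in the mutant library (15.3%, 13.3 to 17.5%) and 133 of 1068 in the wildtype library (12.5%, 10.5 to 14.6%). The ratio was 1.23, and its interval of 0.976 to 1.55 included 1. As a share of all kept barcodes they made up 4.30% (3.70 to 4.95%) and 2.55% (2.14 to 3.01%), a ratio of 1.69 (1.34 to 2.13). B cells together were 1177 of 4190 mutant and 1068 of 5225 wildtype barcodes. Without the Mzb1-only cells, a choice made after seeing the data, the shares of B cells were 11.9% and 8.69%.

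Between the libraries, 2782 genes could be compared within the selected cells. Of these, 110 (3.95%) were at least 1.5-fold higher and 124 (4.46%) at least 1.5-fold lower in mutant cells, with a median log2 ratio of -0.002. The interval included 1 for 48 of the higher and 51 of the lower genes, so counting error alone spans much of both counts. Of the 79 genes higher in selected than in other B cells, 1, S100a6, was also 1.5-fold higher in mutant cells. For each gene named below, the same ratio in other B cells and in near-empty barcodes of at most 20 UMIs, which hold free RNA, is given beside it or at the end of its paragraph.

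Genes known to be induced by interferon were among those higher in mutant cells. Ifi27l2a was at 831 CPM in mutant and 415 CPM in wildtype selected cells, a ratio of 2.0 (1.70 to 2.37), beside 1.41 in other B cells and 1.40 in free RNA. In cells chosen after thinning to 1000 UMIs the ratio was 1.10, under 1.5-fold. Ifitm3, a membrane protein that restricts virus entry, had 58 and 11 UMIs, a ratio of 3.50 (1.82 to 7.39), beside 1.71 and 1.98. Those UMIs lay in 17 mutant and 4 wildtype cells, with 22 of the 58 and 8 of the 11 in a single cell of each library. The Ifitm3 ratio was 2.0 when a rule sum of at least 2 was enough for selection. Plscr1, a phospholipid scramblase, had 57 UMIs in 45 mutant cells and 13 UMIs in 10 wildtype cells, a ratio of 2.91 (1.57 to 5.79), beside 1.05 in other B cells (0.459 to 2.43) and 1.55 in free RNA. Over the whole interferon list of 20 genes, selected cells gave 1322 and 812 CPM, a ratio of 1.63 (1.44 to 1.84), beside 1.23 (1.15 to 1.31) in other B cells. Ifi27l2a supplied 586 of the 933 mutant UMIs of that sum. Of the 4 measured genes of the list, Ifi27l2a and Ifitm3 were higher in the mutant library and 0 lower, beside 3.95% higher and 4.46% lower of all measured genes. Of all 20 list genes, 14 had ratios above 1 and 6 below, beside 48.4% and 51.6% of all genes with a UMI in selected cells.

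Fgl2, a fibrinogen-like protein with a secreted immunosuppressive form, had the opposite direction in selected and other B cells. It had 60 UMIs in 19 mutant and 11 UMIs in 10 wildtype selected cells, a ratio of 3.62 (1.89 to 7.63). In other B cells it had 5 and 24 UMIs, a ratio of 0.204 (0.0606 to 0.544), and the ratio in free RNA was 0.307. All Fgl2 UMIs of selected cells were in cells with another rule gene, and the highest mutant cell held 10. Cd40, the receptor for T cell help, had 52 and 12 UMIs, a ratio of 2.87 (1.51 to 5.92), beside 1.08 (0.840 to 1.39) in other B cells and 1.81 in free RNA. In cells with a rule sum of at least 2 the Cd40 ratio was 1.71. Free RNA thus had the direction of selected cells for Cd40 and the opposite one for Fgl2. Both genes stood apart from the other B cells of the same libraries in their point values, and that difference was not tested.

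S100a6 itself was 1.69-fold (1.56 to 1.84) higher in mutant selected cells, beside 1.55 (1.22 to 1.99) in other B cells, 1.5 in free RNA and 0.793 in T cells. Among cells with another rule gene the ratio was 1.52 (1.40 to 1.65). Among Mzb1-only cells it had 83 UMIs against 8, with 29 of the 83 in a single cell. Hes1, a Notch target, had a ratio of 2.61 (1.49 to 4.84), beside 1.5 in other B cells and 1.08 in free RNA, and 4.19 without Atf3 in the rule sum. Btbd1 had 2.36 (1.38 to 4.23), beside 0.987 and 1.26.

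Lyz2 and Erdr1 had ratios of 2.14 (1.49 to 3.13) and 2.53 (1.44 to 4.70), and both were also higher in other B cells (1.57 and 1.91) and in free RNA (1.59 and 2.22). Lyz2 is the lysozyme of myeloid cells, and 26 of its 40 wildtype UMIs and 28 of its 129 mutant UMIs in selected cells were in a single cell of each library. The Lyz2 ratio was 0.867 in cells with a rule sum of at least 2 and 1.41 without any T cell UMI, so its direction did not hold under every choice of cells. The globin gene Hbb-bs was the extreme case of a gene that moved in every compartment, at 4110 and 74 UMIs, a ratio of 36.8 in selected cells, 27.4 in other B cells and 13.2 in free RNA. For these genes selected cells moved with their library.

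The lower genes held the NK transcripts Gzma, Ccl5 and Nkg7, at 0.354 (0.262 to 0.476), 0.498 (0.423 to 0.587) and 0.527 (0.372 to 0.746). In other B cells the same genes were at 0.268, 0.397 and 0.437 and in free RNA at 0.208, 0.317 and 0.438, so they too were lower throughout the mutant library. Single cells held 45 of 71 mutant and 47 of 133 wildtype Gzma UMIs, and 123 of 260 and 98 of 346 Ccl5 UMIs. The 3 ratios fell short of 1.5-fold under some choices of cells: with Mzb1 left out of the rule sum they were 0.764, 0.852 and 0.831, and without any T cell UMI 0.768, 0.809 and 0.756, while without cells of doublet scores above 0.2 they were 0.201, 0.367 and 0.423. With 5% of each sum subtracted as free RNA they were 0.464, 0.615 and 0.579. The others were lower mainly in selected cells. Kdm5a, a histone demethylase, was at 0.401 (0.237 to 0.668), Bptf, a nucleosome remodelling subunit, at 0.536 (0.374 to 0.766), and the zinc-finger gene Hivep2 at 0.379 (0.207 to 0.675). In other B cells their ratios were 0.892, 1.02 and 1.14, and in free RNA 0.892, 0.942 and 0.939.

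Laptm5, a lysosomal protein that limits B cell receptor levels, was at 156 CPM in mutant and 271 CPM in wildtype selected cells, a ratio of 0.574 (0.441 to 0.748), beside 0.966 (0.866 to 1.08) in other B cells and 0.841 in free RNA. Apoe, an apolipoprotein, was at 0.613 (0.502 to 0.748), beside 0.853 and 1.19, and at 0.829 with Mzb1 left out of the rule sum. Its level was highest in Mzb1-only cells, at 878 (mutant) and 849 CPM (wildtype), where the libraries were level. Bscl2, which encodes the lipid droplet protein seipin, was at 0.390 (0.213 to 0.698) and Pdhb, a subunit of pyruvate dehydrogenase, at 0.442 (0.246 to 0.782), on 20 and 22 mutant UMIs. Their ratios were 0.844 and 1.02 in other B cells and 0.841 and 0.706 in free RNA.

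**Figure D5:**
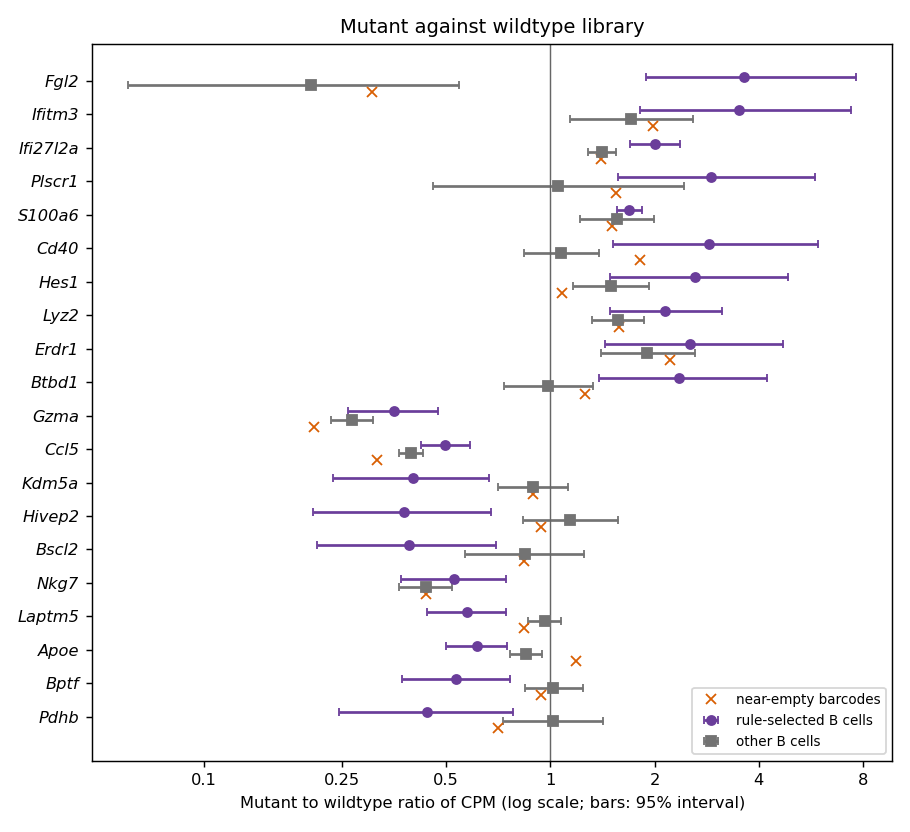
Mutant to wildtype ratio of CPM (log scale, with 95% intervals) for the 10 higher and 10 lower genes named by rule, in selected B cells (purple circles), other B cells (grey squares) and near-empty barcodes (orange crosses). By point value, Fgl2, Btbd1, Hivep2, Apoe, Bptf and Pdhb do not lie on the same side of 1 in all 3, and the other genes shown do. Fgl2 lies at 3.62 in selected and 0.204 in other B cells.

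Mvk, the mutated gene, had 5 UMIs in mutant and 1 in wildtype selected cells, a ratio of 3.32 (0.371 to 157), and 7 and 8 UMIs in other B cells. Transcript counts this low do not bear on the labels. Over the 23 genes of the mevalonate and sterol list, selected cells gave 465 CPM (mutant) and 359 CPM (wildtype), a ratio of 1.29 (1.07 to 1.57), beside 1.05 (0.932 to 1.18) in other B cells. Of the 23 genes, 15 were higher and 8 lower in mutant cells, beside 48.4% higher and 51.6% lower of the 11501 genes with a UMI in selected cells, only 2 had enough UMIs to be measured, and 0 of these passed 1.5-fold. Fdps, the farnesyl diphosphate synthase downstream of mevalonate kinase, had 31 UMIs in 26 mutant and 7 UMIs in 6 wildtype cells, a ratio of 2.94 (1.27 to 7.90), beside 1.12 (0.721 to 1.74) in other B cells. Idi1, the isopentenyl diphosphate isomerase, had 21 and 3 UMIs, a ratio of 4.64 (1.39 to 24.3), beside 0.977 (0.457 to 2.09). In cells with another rule gene Fdps had 26 and 2 UMIs (7.99, 2.0 to 69.5) and Idi1 19 and 1 (11.7, 1.86 to 485), while in Mzb1-only cells they had 5 and 5 and 2 and 2 UMIs, a ratio of 0.935 for each. Hmgcs1, an enzyme of the same pathway, had 15 and 12 UMIs (0.829, 0.362 to 1.94). The pathway's genes therefore did not share 1 size or direction, and Fdps and Idi1 were named after their values were seen.

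Summed over their genes, the candidate lists differed little between libraries in selected cells. The B-1 list had a mutant to wildtype ratio of 1.16 (0.997 to 1.34), the memory list 0.947 (0.830 to 1.08) and the atypical list 0.844 (0.721 to 0.988). In other B cells the same lists were at 1.20 (1.04 to 1.38), 0.912 (0.836 to 0.994) and 1.07 (0.961 to 1.18). Ctla4 (0.995, 0.528 to 1.92), Cd80 (0.958, 0.379 to 2.54), Il5ra (0.633, 0.331 to 1.21) and Fcrl5 (0.575, 0.252 to 1.30) all had intervals that included 1. Other list genes differed more. Plscr1, 1 of 3 measured B-1 genes, was 1.5-fold higher in mutant cells (2.91, 1.57 to 5.79), and Hhex, 1 of 7 measured memory genes, was 1.5-fold lower. Of all measured genes, 3.95% were higher and 4.46% lower. Cxcr3 of the atypical list was at 0.117 (0.0220 to 0.405), on UMIs in 2 mutant and 6 wildtype cells. Of the 20 genes of the S100, annexin and cytoskeletal list, 19 were above 1 (48.4% of all genes with a UMI), with a summed ratio of 1.32 (1.28 to 1.37) beside 1.13 (1.09 to 1.17) in other B cells, and 2 of 17 measured (S100a4 and Lgals3) passed 1.5-fold beside 3.95% of all genes. All 13 follicular genes were below 1 (51.6% of all genes with a UMI), with a summed ratio of 0.920 (0.877 to 0.965) beside 1.02 (0.995 to 1.05). The largest gap there was in Icosl, the ligand of the T cell receptor ICOS, with 3 mutant and 20 wildtype UMIs in selected cells, a ratio of 0.0995 (0.0189 to 0.336), beside 97 UMIs in the other B cells of each library.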

How the data were processed

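Both matrices hold raw UMI counts per gene and barcode, deposited by the authors without cell filtering. Cell Ranger 2.1.1 and build mm10 are named in the submitters' processing notes, and depth per library was 14513059 and 15385199 UMIs. Cells, filters and lists were chosen with earlier results of these data known. UMIs were summed per library over selected and other B cells. A gene was measured when its UMIs in both sums, times the UMI share of the smaller sum, reached 20. Ratios of CPM have exact conditional 95% intervals and shares Clopper-Pearson intervals. T cells had at least 2 Cd3 UMIs and no B cell UMI. Named genes were the 15 higher and 12 lower (selected against other B cells) and the 10 higher and 10 lower (mutant against wildtype) whose bound nearest to 1 was farthest from 1. Rule, ribosomal, mitochondrial, globin, immunoglobulin and T cell receptor genes and provisional names were left out of naming. Rule genes, Mvk and up to 4 genes of each list were added, and further list genes were named after their values were seen. Scrublet in scanpy 1.11.5 scored doublets and none were removed. Its automatic threshold marked 0.0716% of mutant barcodes and had not worked, so 0.2 was used in both libraries. Gene positions and names come from the GRCm38 GENCODE annotation, which matches mm10. Python 3.11.15, numpy 2.4.6 and scipy 1.17.1 were used. The ratio code was tested on simulated data. Some list genes are not reported here.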

Additional observations from a re-analysis of the deposited data

Results flagged for a closer look

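Of the measured genes, 4 passed 1.5-fold in opposite directions in the 2 libraries when selected B cells were set against other B cells. Btbd1 was at 1.55 (mutant) and 0.647 (wildtype). Id2, a transcriptional inhibitor of the helix-loop-helix family that NK and innate lymphoid cells also express, was at 2.07 and 0.601. Hivep2 was at 0.516 (mutant) and 1.56 (wildtype), and the mitochondrial enzyme gene Pdhb at 0.655 and 1.51. Each library is 1 sample, and the difference between libraries was not tested. The Id2 level of other B cells was 32.1 CPM (mutant) and 74.7 CPM (wildtype), while selected cells were at 66.6 and 44.9 CPM.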

How the results depend on the processing

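The rule's threshold and cell depth set the size of the group. Selected cells were 26.9% of mutant and 22.6% of wildtype B cells at a minimum rule sum of 2, and 11.7% and 8.52% at a minimum of 4. They were 8.16% and 6.27% with Mzb1 left out of the sum. They were 24.4% and 19.1% among cells of at least 1500 UMIs and 5.83% and 4.58% after thinning to 1000 UMIs. Without Mzb1-only cells, an alternative chosen after seeing the data, they were 11.9% and 8.69%. The mutant to wildtype ratio of these shares was 1.19 to 1.38 over the 13 alternatives. Its interval, which included 1 as reported, was above 1 at a minimum rule sum of 2 (1.003 to 1.413) or 4 (1.05 to 1.81), at most 5% mitochondrial UMIs (1.01 to 1.64), at least 1500 UMIs (1.006 to 1.623) and without Mzb1-only cells (1.04 to 1.81). Counts of genes moved with how many could be measured. Against 79 higher and 213 lower genes (selected against other B cells) and 110 higher and 124 lower (mutant against wildtype), the counts were 147, 374, 351 and 429 at 10 expected UMIs, 37, 95, 15 and 12 at 50, and 923, 866, 2481 and 3020 without a filter. Thinned cells gave 5, 12, 9 and 14. A minimum rule sum of 2 gave 137 lower genes, no T cell UMI at all gave 50 higher genes, and a sum without Mzb1 gave 59 genes lower in mutant cells. Removing cells with at least 2 UMIs of other cell types' genes left 14 mutant and 6 wildtype selected cells, shares of 4.49% and 3.77%, a ratio over all barcodes of 1.19, and counts of 0, 0, 2 and 4. Those genes include Tcf4, which B cells express, so this cut removes B cells as well. Lyz2 reversed at a minimum rule sum of 2, to 0.867 from 2.14, and the cause was not tested. Over 1211 values of the named genes' ratios under alternatives, 20 fell short of 1.5-fold, in 9 genes (Crip1, Ccr7, Btg1, Ifi27l2a, Lyz2, Gzma, Ccl5, Nkg7 and Apoe), and 65 moved by over 1.5 times, in 22 genes. Part of the 1211 values could not move. The settings of 10 and 50 expected UMIs change only which genes are measured. Leaving out barcodes kept in both libraries could not change mutant to wildtype ratios, because no selected cell was among them. Genes too low under a setting have no value there. Leaving out cells of 100 or more globin UMIs or the barcodes kept in both libraries, also chosen after seeing the data, moved none of these shares and counts by over 1.5 times. No paired analysis was possible because each genotype has 1 pooled library. Depth limits the sparse markers: at these UMI counts Tbx21, Itgax, Nt5e and Cd5 could differ between sets without being detected.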
